A study of Nothobranchius furzeri with 3 samples.

Results

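The Hox cluster miRNAs of killifish skin were represented by 2 of the 324 features of the count table, nfu-mir-10 and nfu-mir-196 (mir-10 and mir-196 below). They were chosen by name, with earlier results of these data known. Skin was taken from male turquoise killifish, Nothobranchius furzeri, a short-lived annual fish, aged 39 weeks, of the strain MZM-04/10p. All 3 libraries belong to this 1 group and are called libraries 1, 2 and 3, so there is no second age, sex, strain, tissue or treatment to compare with. Nothing in the labels says that the libraries came from separate fish, and their spread may be technical in part. Whole skin holds many cell types, and in such a sample fewer cells of a type and less RNA per cell cannot be told apart.

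miR-10 and miR-196 are short regulatory RNAs whose genes lie between the Hox genes, the transcription factor genes that set the identity of body regions along the head to tail axis. In vertebrates miR-10 genes lie beside the group 4 Hox genes, and miR-196 genes lie further towards the posterior end of the clusters, between the group 9 and group 10 genes. Both are transcribed in domains like those of their neighbours, and both repress Hox transcripts. In mouse, miR-196 directs the cleavage of Hoxb8 mRNA, and in zebrafish, miR-10 represses hoxb1a and hoxb3a. Cells of adult skin such as dermal fibroblasts are known in human to keep a Hox code of the body site they came from.

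The RefSeq gene table for the killifish assembly NfurGRZ-RIMD1 names 38 Hox genes on 6 chromosomes, and 0 of its entries are miRNA genes, so it places neither member in a killifish Hox cluster. Among them are 4 of group 4 (hoxa4a, hoxb4a, hoxc4a and hoxd4a), 4 of group 9 (hoxa9a, hoxa9b, hoxc9a and hoxd9a) and 3 of group 10 (hoxa10b, hoxc10a and hoxd10a). The count table has a single feature named mir-10 and a single one named mir-196, and the gene copies behind each are not given. The values below thus cannot be assigned to a cluster, a gene copy or an arm of a precursor. miR-99 and miR-100, encoded elsewhere in the genome, are close relatives of miR-10, and their reads may be pooled in the mir-10 count.

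In total, 5021238, 8545292 and 9590428 counts were listed for libraries 1, 2 and 3. Shares are percentages of these totals, with 95% exact binomial (Clopper-Pearson) intervals, and CPM gives the counts per 1000000 counts of a library. Reads of a small RNA library may include PCR copies, so every interval covers counting error only. Counts were not divided by length, as no length was given for a feature, and a library made by ligation captures some sequences better than others, which bears on every ratio between different miRNAs.

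Both members were detected in every library, but at very different levels. mir-10 was among the 4 most abundant features of each library, with a mean share of 14.6% ± 4.05 (SD, n = 3), whereas mir-196 had a mean of 149 ± 89.7 CPM (SD, n = 3). mir-10 thus took nearly all counts of the pair. mir-196 made up 0.0368%, 0.0962% and 0.222% of the counts of both members in libraries 1, 2 and 3.

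mir-10 had 955645, 1160935 and 1065152 counts in libraries 1, 2 and 3. Library 1 gave it a share of 19.0% (95% interval 18.998 to 19.07), library 2 one of 13.6% (13.56 to 13.61) and library 3 one of 11.1% (11.09 to 11.13). Library 1 was the highest and library 3 the lowest, and no intervals overlapped. The feature ranked first of 324 in library 1, behind mir-204 and mir-26 in library 2, and at place 4 in library 3, behind mir-26, mir-181 and mir-204.

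The order of the leading features by mean level could not be resolved at this spread. mir-204 and mir-26 stood next above mir-10, at 15.7% ± 3.69 and 15.6% ± 2.14 of counts (SD, n = 3 each), and each exceeded mir-10 in 2 of 3 libraries. miR-204 is a miRNA of pigmented epithelia and other tissues, and miR-26 is encoded within introns of CTDSP phosphatase genes. mir-181, a miRNA known from lymphoid and many other tissues, stood next below at 11.3% ± 2.52, and exceeded mir-10 in 1 of 3 libraries. These means differed from that of mir-10 by less than its SD. mir-205, a miRNA of stratified epithelium, followed at 6.63% ± 1.01 and was below mir-10 in all 3 libraries.

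mir-196 had 352, 1118 and 2365 counts in libraries 1, 2 and 3. Its level in library 1 was 70.1 CPM (95% interval 63.0 to 77.8), against 131 CPM (123 to 139) in library 2 and 247 CPM (237 to 257) in library 3. Library 3 was the highest and library 1 the lowest, the reverse of mir-10, and no intervals overlapped. The feature ranked 81, 77 and 62 of 324 in libraries 1, 2 and 3. A count of 0 allows up to 3 counts, or 0.597, 0.351 and 0.313 CPM, and the lowest mir-196 count was 117 times that limit.

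By mean CPM mir-196 took place 74 of 324. The features next above it were mir-489, known in mouse for holding muscle stem cells quiescent, at 156 ± 26.2 CPM, and mir-138, a miRNA of brain and other tissues, at 152 ± 20.2 CPM (SD, n = 3 each). Next below were mir-365 at 144 ± 81.0 CPM and mir-883 at 120 ± 14.4 CPM (SD, n = 3 each). All 4 means lay within 1 SD of that of mir-196. The SD of mir-196 was the highest of these 5 features.

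**Figure D1:**
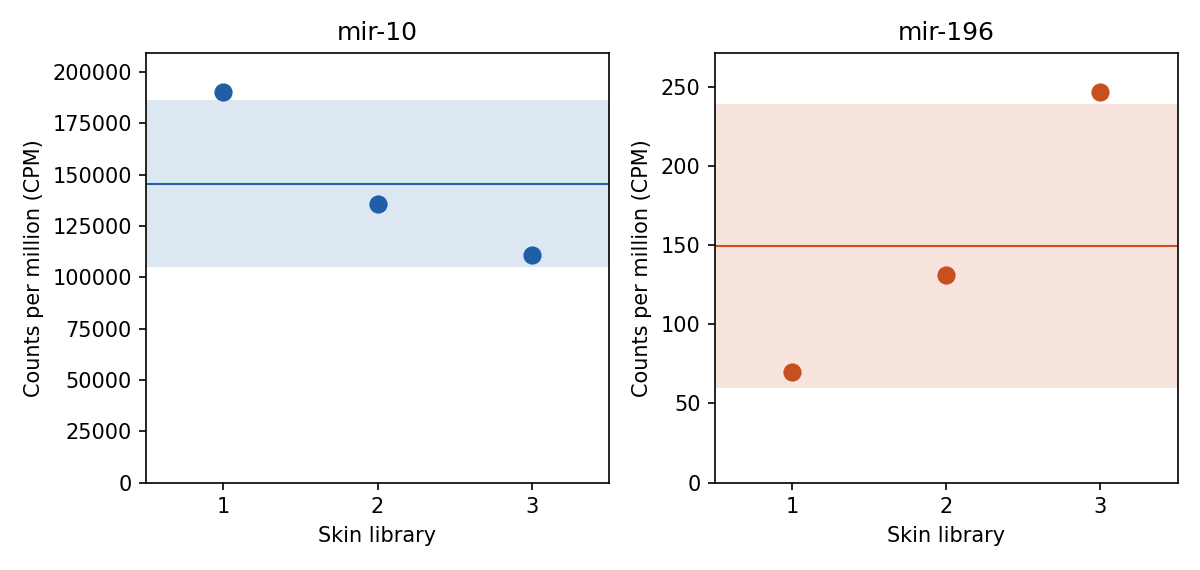
Level in CPM of mir-10 (left) and mir-196 (right) in each of the 3 skin libraries. Points are libraries, the line is the mean and the band is 1 SD over the 3 libraries; mir-10 is highest in library 1 and lowest in library 3, and mir-196 is highest in library 3 and lowest in library 1, on axes that differ in scale.

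The ratio of mir-10 to mir-196 needs no scaling between libraries, since both counts come from the same library. In library 1 it was 2715 (95% interval 2446 to 3022), in library 2 it was 1038 (979 to 1102) and in library 3 it was 450 (433 to 469). mir-10 exceeded mir-196 in 3 of 3 libraries, with a mean log2 ratio of 10.08 ± 1.297 (SD, n = 3). A two-sided sign-flip test of this mean, an exact permutation test, gave p = 0.25; with 3 libraries no smaller p exists, so 0.05 is out of reach.

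The size of the ratio was far from constant. It was 6.03 times as high in library 1 as in library 3 (95% interval 5.39 to 6.74), 2.61 times as high in library 1 as in library 2 (2.32 to 2.95), and 2.31 times as high in library 2 as in library 3 (2.15 to 2.48). Fisher's exact test on the counts gave adjusted p = 1.75e-318, 1.19e-63 and 1.41e-125 for these 3 pairs, with Benjamini-Hochberg adjustment. That test sets these libraries against each other by counting error and compares no conditions. No other pair of features was put to it. Among single features, 81.6% of 158 differed between libraries beyond counting error, in a chi-square test described below. The geometric mean ratio was 1083, and it was 684 without library 1 and 1679 without library 3.

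**Figure D2:**
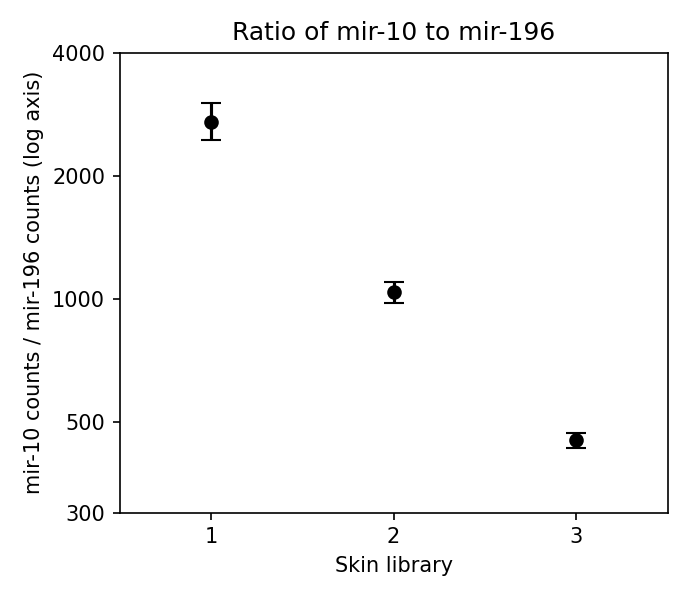
Ratio of mir-10 counts to mir-196 counts in each skin library, on a log axis; bars are 95% exact binomial intervals, which cover counting error only. The ratio is 2715, 1038 and 450 in libraries 1, 2 and 3, and no bars overlap.

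To compare levels between libraries, counts were scaled with TMM, the trimmed mean of M-values of edgeR, with factors of 0.940, 0.991 and 1.07 for libraries 1, 2 and 3. The scaled level of mir-10 was 202496, 137058 and 103471 CPM in libraries 1, 2 and 3. Its level in library 1 was 1.48 times that in library 2 and 1.96 times that in library 3, and its level in library 2 was 1.32 times that in library 3. That of mir-196 was 74.6, 132 and 230 CPM in libraries 1, 2 and 3. Its level in library 3 was 3.08 times (95% counting interval 2.75 to 3.45) that in library 1 and 1.74 times (1.62 to 1.87) that in library 2. Its level in library 2 was 1.77 times that in library 1.

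Both members differed between the libraries by more than counting error, which was the usual case in this table. A chi-square test of the 3 counts against the TMM-scaled library sizes, with Benjamini-Hochberg adjustment over the 158 features whose counts averaged 10 or more, called 129 of them, or 81.6%, at an adjusted p under 0.05, and both members were among these. Among the 130 features whose counts averaged 50 or more, 121 were called, so at the depth of the members a call was close to the rule. The adjusted p of mir-196 was 3.87e-121 in the chi-square test over the 158 features, and that of mir-10 was smaller than can be represented. By pairs of libraries, both members were called in all 3 pairs, where 69.0% of features were called between libraries 2 and 1, 67.7% between libraries 3 and 1, and 76.6% between libraries 3 and 2.

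In size, the change of mir-10 was ordinary and that of mir-196 was above that of most features. The highest library exceeded the lowest by a median ratio of 1.92 in TMM-scaled CPM among the 115 features whose counts averaged 100 or more. mir-10, at 1.96, ranked 54 of 115, and its coefficient of variation of 34.1% was itself the median of the 115. mir-196, at 3.08, ranked 22 of 115, and its coefficient of variation was 53.9%. Only mir-196 passed a ratio of 2, as did 53 features, or 46.1% of the 115, and a ratio of 3, as did 20.0%. By pairs, it passed a fold of 2 between libraries 3 and 1, as did 19.1% of features, while neither member did so between libraries 2 and 1, where 31.3% did, or between libraries 3 and 2, where 25.2% did. mir-10 lay close to the threshold of 2 and was on its other side, at 2.06, with the size factors of DESeq2, which put mir-196 at 2.93, below a ratio of 3. For mir-196 the ratio was 1.74 without library 1 and 1.64 without library 3, so its place past 2 rests on the contrast of these libraries. In these runs the TMM factors were refitted to the libraries left. The 1.64 thus differs from the 1.77 given above for library 2 over library 1.

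**Figure D3:**
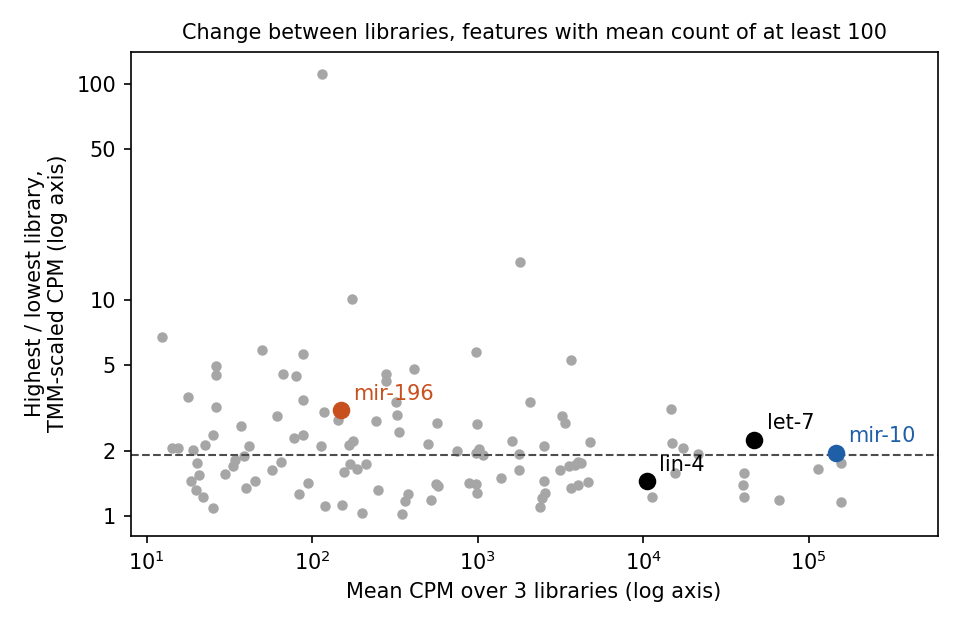
Highest library divided by lowest library in TMM-scaled CPM against mean CPM, both on log axes, for the 115 features whose counts averaged 100 or more; the dashed line is their median of 1.92. mir-10 (1.96) lies at the median, mir-196 (3.08) above it, let-7 at 2.26 and lin-4 at 1.44.

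The opposite order of the members held under each of the 3 scalings tried. mir-10 was highest in library 1 and lowest in library 3, and mir-196 the reverse, with TMM, with DESeq2 size factors and with library totals. Of the 115 features, 11.3% followed the order of mir-10 over the 3 libraries and 19.1% that of mir-196. Library depth moved with both: library 1 had the lowest total and library 3 the highest. The total of library 3 was 1.91 times that of library 1, while its mir-10 count was 1.11 times and its mir-196 count 6.72 times as high. The part of depth in either order was not tested.

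The table was searched for other names of the miR-10 family or of the Hox clusters. Of 12 such names, including mir-99, mir-100, mir-615 and the fly Hox miRNAs mir-iab-4 and mir-iab-8, 1 was found, mir-56. In Caenorhabditis elegans this name belongs to the mir-51 family, which is related to miR-99 and miR-100. mir-56 had 12, 10 and 15 counts in libraries 1, 2 and 3, too few to add to the account of the pair.

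miR-99 and miR-100 genes lie in clusters with let-7 and miR-125 genes in vertebrates, so the levels of let-7 and of lin-4, the nematode name of the miR-125 family, were set beside mir-10. let-7, known for developmental timing, stood at 33250, 74299 and 32912 CPM after TMM scaling in libraries 1, 2 and 3, and was highest in library 2. lin-4 stood at 8685, 12530 and 10167 CPM on the same scale and was likewise highest in library 2. Neither followed the order of mir-10. The gene copies behind let-7 and lin-4 are not given either. Their order thus cannot tell how much of the mir-10 count came from miR-99 or miR-100.

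mir-10 exceeded both let-7 and lin-4 in every library. It had 6.09, 1.84 and 3.14 times the counts of let-7 in libraries 1, 2 and 3, and its log2 ratio averaged 1.71 ± 0.863 (SD, n = 3). It had 23.3, 10.9 and 10.2 times the counts of lin-4, and this log2 ratio averaged 3.78 ± 0.662 (SD, n = 3). The ratio to lin-4 was thus close between libraries 2 and 3, with 95% intervals of 10.87 to 11.0 and 10.1 to 10.2, and higher in library 1. How much of the mir-10 count came from miR-99 or miR-100 was not tested. mir-196 was below let-7 and lin-4 in every library, at 0.00859, 0.0105 and 0.0226 times the counts of lin-4.

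The features whose profile over the 3 libraries was most like that of mir-10 were found by the distance between log2 TMM-scaled CPM values, each centred on its own mean, among the 115 features. With 3 libraries, such likeness is a description only. The nearest was mir-126, the endothelial miRNA hosted by the EGFL7 gene, at a distance of 0.18, with 5185, 4183 and 2910 TMM-scaled CPM in libraries 1, 2 and 3. mir-10 had 39.1, 32.8 and 35.6 times the counts of mir-126, a ratio that varied 1.19-fold between libraries, which restates the nearness of their profiles. Next came pred_586, a feature with a prediction number only, at 0.22, and mir-489 at 0.29. mir-34, a miRNA induced by p53 in mammals, followed at 0.34 and mir-143, a smooth muscle miRNA, at 0.36. Of these 5 features, only mir-143 was lowest in a library other than library 3, at 5836, 3326 and 3580 TMM-scaled CPM. mir-34 was low and nearly level between libraries 2 and 3, at 23.3, 16.3 and 16.1 TMM-scaled CPM.

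The profiles nearest to that of mir-196 were more distant. The distance is not scaled for the size of a change, so a wider range tends to enlarge it. That range was 3.08-fold for mir-196 and 1.96-fold for mir-10, so the greater distance is not a separate result. mir-46 stood at 0.40, with 56.2, 67.8 and 133 TMM-scaled CPM in libraries 1, 2 and 3, and mir-1388 at 0.44, with 503, 706 and 1008. The lymphocyte miRNA mir-150 stood at 0.44, with 9.75, 12.3 and 20.01 TMM-scaled CPM, and mir-425 at 0.48, with 2044, 2290 and 5484. mir-150 had only 46, 104 and 206 counts, so counting error weighs more on its distance. mir-128, a miRNA enriched in brain, stood at 0.58, with 1093, 2028 and 2115 TMM-scaled CPM. All 5 were lowest in library 1 and highest in library 3, and each varied less between its highest and lowest library, by 1.93-fold to 2.68-fold, than mir-196.

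**Figure D4:**
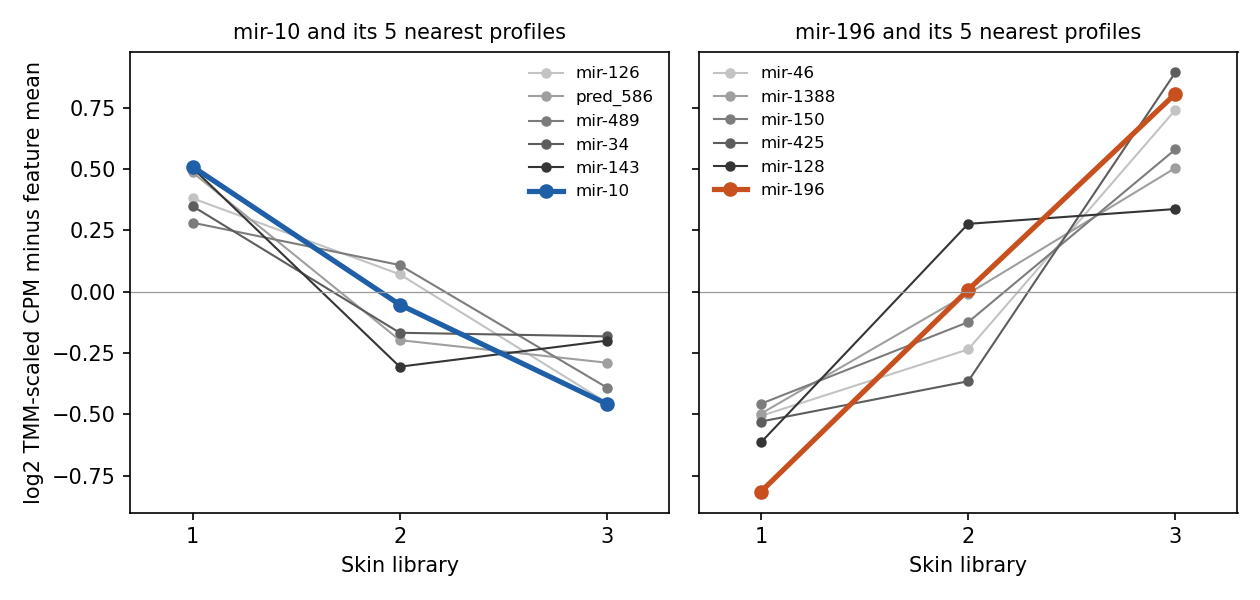
log2 TMM-scaled CPM minus the feature's own mean in each skin library, for mir-10 (left, blue) and mir-196 (right, orange) with their 5 nearest profiles in grey. Lines only join the points of 1 feature; mir-10 is high in library 1 and low in library 3, and mir-196 the reverse.

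Marker miRNAs of the cell types that skin can hold were set beside the members, as sums of TMM-scaled shares. The endothelial list, mir-126 alone, took 0.519%, 0.418% and 0.291% in libraries 1, 2 and 3 and had the order of mir-10. This is the feature found above as the nearest profile of mir-10, so its order is not a separate result. The leukocyte list, with all 5 members in the table, took 0.507%, 0.506% and 0.429% in libraries 1, 2 and 3, and the first 2 of these were nearly equal. Of its 5 members, 0 had the order of mir-10, while mir-150 and mir-155 had that of mir-196. mir-142 and mir-223 were highest in library 2, and mir-146 was lowest there. The epidermis list, with 4 of 6 members in the table, of which mir-200 was at 0 in every library, took 6.71%, 7.20% and 8.14%. The annotation is not given, so miR-200 reads may have been counted under another name, such as mir-8. With TMM the epidermis sum had the order of mir-196, as did 2 of its members, mir-205 and mir-8, and so it was with library totals. With DESeq2 size factors, however, the sum and mir-205 were lowest in library 2, and only mir-8 kept that order. mir-203 was lowest in library 2 by a small margin, at 2887, 2829 and 4813 TMM-scaled CPM. Without scaling it stood at 2713, 2804 and 5166 CPM, which is the order of mir-196. The neural list, with 5 of 5 members, took 0.148%, 0.245% and 0.253%, a sum that was mostly mir-128. Of its members, mir-128 and mir-138 had the order of mir-196 with TMM. In turn, mir-9, mir-218 and the neuronal mir-124, at 19, 46 and 22 counts, were highest in library 2. But mir-138 and mir-218 were nearly level, varying only 1.12-fold and 1.03-fold between libraries in TMM-scaled CPM. With DESeq2 size factors both of these were lowest in library 2.

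The other lists followed neither order. Striated muscle, with 3 of 5 members in the table, took 1.74%, 0.673% and 2.08% in libraries 1, 2 and 3. Mesenchyme with smooth muscle, with 4 of 4, took 2.04%, 2.74% and 1.76%. The members of this second list went different ways. mir-199 and mir-214 were highest in library 2, whereas mir-143 and mir-145 were lowest there and highest in library 1. Erythroid miRNAs, with 2 of 2, took 0.120%, 0.228% and 0.0474%, and the pigment cell list, mir-204 alone of 2, took 17.2%, 19.3% and 11.0%. The part of these cell types in the values of mir-10 and mir-196 was not tested.

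Set against mir-205, the leading epidermal miRNA, both members kept their orders. mir-205 itself varied only 1.18-fold between libraries in TMM-scaled CPM, less than any step of either member, so neither order could have changed. mir-10 had 3.33, 2.10 and 1.44 times the counts of mir-205 in libraries 1, 2 and 3, with 95% intervals that did not overlap. mir-196 had 0.00123, 0.00202 and 0.00320 times the counts of mir-205. The first ratio thus varied 2.31-fold between libraries and the second 2.61-fold, in opposite directions.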

How the data were processed

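Small RNA from skin was sequenced after TruSeq library preparation, per the labels' protocols. The authors deposited raw whole-number counts per miRNA name, 1 column per library, neither normalized nor pooled. BWA 0.7.12-r1039, SAMtools 1.3.1-9, Trimmomatic 0.36 and bcl2fastq 1.8.4 are listed, without roles, per the submitters' processing notes. Not given in the sources used here are the genome build, the annotation, and how reads were counted or multiply matching reads treated, so a family with many gene copies may be under- or overcounted. Libraries are numbered in accession order. From the deposited counts, CPM and shares in percent were derived. No sequences were used here, and the RefSeq gene table served only for the names of Hox genes and their number of chromosomes.

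TMM factors came from edgeR 4.0.16 and alternative size factors from DESeq2 1.42.0 (R 4.3.3). Shares, ratios, chi-square, Fisher and sign-flip tests used scipy 1.17.1, pandas 2.3.3 and numpy 2.4.6 under Python 3.11.15. Intervals of a ratio between ratios were Wald intervals on the log scale. The chi-square calls and the common biological coefficient of variation of edgeR were tested on simulated counts. Those for the chi-square calls held no spread between libraries beyond counting error, apart from the changes put in. Features named were the members, the 2 next above and below each by mean CPM, the 5 nearest profiles and the listed markers. Members and lists were chosen with earlier results of these data known. mir-126 and mir-205 as denominators were chosen after their values were seen.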

Additional observations from a re-analysis of the deposited data

How the results depend on the processing

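No paired analysis was possible because there is no second group. The mean shares of both members and the log2 ratios of mir-10 to mir-196, let-7 and lin-4 moved by less than 1 SD under every alternative run. Leaving out 1 library of 3 cannot move a mean by 1 SD, so those runs could not have shown otherwise. The ratios to let-7 and lin-4 had no other runs. That to mir-196 was also run with 1 or 10 counts added, few beside its lowest count of 352. Both members stayed past the chi-square threshold. Scaling factors were refitted whenever a library was left out. The highest to lowest ratio of mir-10 was 2.06 with DESeq2 size factors and 1.71 with library totals, against 1.96 with TMM, and 1.32 to 1.96 with each library left out in turn. That of mir-196 was 2.93 with DESeq2 size factors and 3.52 with library totals, against 3.08 with TMM, and 1.64 to 3.08 with each library left out. With mir-10 left out of the totals, an alternative chosen after seeing the data, it was 3.20. Features past a ratio of 2 numbered 96 among the 200 with a count above 0 in every library, against 53 of 115, and 20 to 33 with each library left out, where only a pair of libraries remains. The common biological coefficient of variation from edgeR was 0.456, and was 0.462 with library totals, 0.452 with DESeq2 size factors, 0.463 with counts above 0 in every library, 0.472 with a mean count of at least 50, and ranged over 0.371 to 0.482 when single libraries were dropped, with the lowest value without library 2. Of the 5 nearest profiles of mir-10, 2 remained with a mean count of at least 10, where more features compete; of those of mir-196, 4 did. Between the members, the lowest count was that of mir-196 in library 1, at 352.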
